A study of Nothobranchius furzeri with 42 samples.

Results

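The genes described here are those that heart and skeletal muscle of the African turquoise killifish (Nothobranchius furzeri) shared against 3 other tissues. They were chosen by their levels in these libraries: 179 of the 25475 genes in the table had a level of at least 5 CPM in heart and in muscle, and the lower of these levels was at least 10 times the highest level in liver, spleen and kidney. CPM puts the counts of all libraries on 1 scale, here after TMM scaling, which adjusts library totals for differences in composition. A tissue level is the average of the alendronate mean and the placebo mean. By the same limits applied to 1 tissue alone, 402 genes were enriched in muscle and 130 in heart. High levels in heart and muscle are therefore no finding, and they are given below as a description without a test.

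RNA was sequenced from heart, caudal fin muscle, liver, spleen and kidney of female fish of the GRZ strain, a short-lived line in which the series title places a study of survival and bone. The alendronate group was exposed from 16 weeks of age, for 3 weeks, to 10 µM alendronate in the water, and the placebo group received distilled water in the same way. All fish were kept at 28 °C and were 19 weeks old at sampling, and the labels name no mutant allele or transgene. Each tissue had 5 alendronate libraries, with 4 placebo libraries in heart, muscle and liver, 3 in spleen and 2 in kidney. Libraries whose titles share a letter and number were read as tissues of 1 fish, which gives 5 alendronate and 4 placebo fish with both heart and muscle. Alendronate is a bisphosphonate, a drug that settles on bone mineral and blocks an enzyme of the mevalonate pathway in bone-resorbing osteoclasts.

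Heart and skeletal muscle are the striated muscles of the body. In their cells myosin thick filaments pull on actin thin filaments within sarcomeres, and calcium released from the sarcoplasmic reticulum switches contraction on through troponin and tropomyosin. Some of these proteins are made from the same gene in both tissues, and others from separate cardiac and skeletal members of a gene family. The deposited table does not pair its Ensembl gene IDs with names, and 0 of the 25475 IDs matched the gene table at hand. Which of the 179 genes encode such proteins was therefore not examined, and the description of the group as striated muscle genes rests on tissue levels alone. Lists of sarcomere, calcium handling, energy and other cell type genes could not be matched for the same reason.

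Total counts ran from 20485992 to 35717250 per library over all 42 libraries. TMM factors averaged 1.33 in heart and 0.674 in muscle, so a given share of counts gave a lower CPM in heart than in muscle. The sources used here do not give the number of tanks, and every alendronate library has a lower serial number than any placebo library, so treatment cannot be told apart from tank or library order. In heart, the library of alendronate fish 3 stood apart: 24 of the 179 genes, or 13.4%, lay more than 2-fold below the tissue median, as did 6.20% of the 9237 other genes at 5 CPM or more in both tissues. In muscle, placebo fish 1 had 14 of the 179 genes (7.82%) more than 2-fold above the median and 12 (6.70%) below, against 1.27% and 3.79% of the other genes. Placebo fish 4 had 4 (2.23%) above and 13 (7.26%) below, against 2.57% and 3.29% of the other genes.

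The 179 genes made up several percent of all counts in both tissues. In heart they took 6.71%, 7.23%, 6.28%, 6.87% and 6.67% of counts in alendronate fish 1 to 5, against 6.43%, 6.45%, 6.71% and 6.002% in placebo fish 1 to 4. In muscle they took 7.82%, 8.59%, 8.49%, 11.6% and 8.14% in alendronate fish 1 to 5, against 8.99%, 9.36%, 9.13% and 8.43% in placebo fish 1 to 4. The arms overlapped in both tissues, and muscle of alendronate fish 4 lay above every other library. The mean share was 6.75 ± 0.347% with alendronate and 6.40 ± 0.294% with placebo in heart (SD, n = 5 and 4), and 8.93 ± 1.55% with alendronate and 8.98 ± 0.395% with placebo in muscle (SD, n = 5 and 4). The 95% Wilson interval of a share reached at most 0.0119 percentage points to either side, so counting error was small beside the spread between fish. In tissue RNA, a lower share from fewer cells of a type and a lower share from less RNA per cell cannot be told apart.

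**Figure D1:**
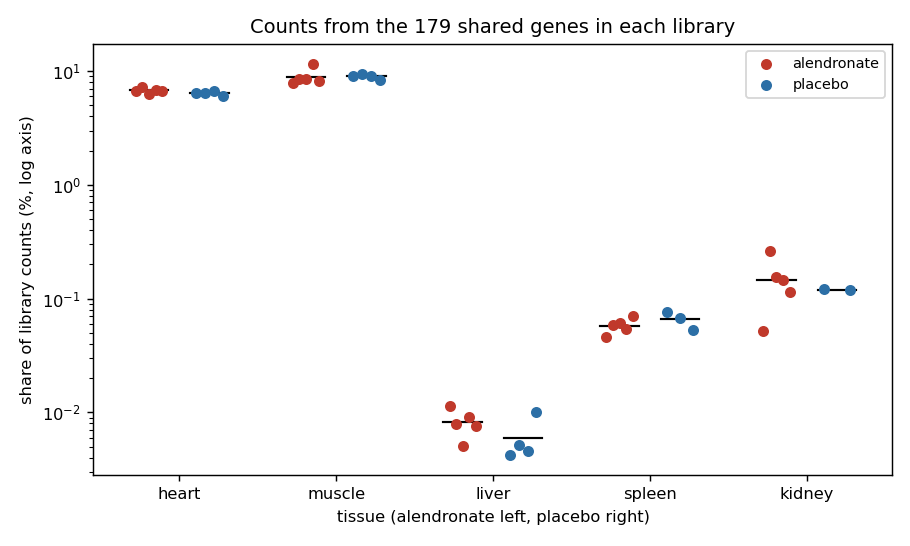
Share of library counts taken by the 179 shared genes (%, log axis) in each library, by tissue, with alendronate in red on the left and placebo in blue on the right of each tissue. Points are libraries and bars are group means. Heart libraries lie between 6.002% and 7.23% and muscle libraries between 7.82% and 11.6%, while no liver, spleen or kidney library passes 0.260%.

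The higher share in muscle of alendronate fish 4 came largely from 1 gene. ENSNFUG00015010155, the most abundant of the group in muscle, stood there at 8805, 22339, 27359, 57966 and 18565 CPM in alendronate fish 1 to 5, against 32356, 26662, 33062 and 12291 CPM in placebo fish 1 to 4. Fish 4 of the alendronate arm was highest and fish 1 lowest, and the alendronate range covered that of placebo. This gene alone supplied 31.2% of the group's counts in muscle of alendronate fish 4, and between 8.84% and 22.8% in the other 8 muscle libraries. It accounted for 68.9% of the 3.39 percentage points by which that library's share exceeded the mean of the other 4 alendronate libraries. With this gene left out, the group's share was 7.17 ± 0.501% with alendronate and 7.29 ± 0.356% with placebo in muscle (SD, n = 5 and 4).

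Abundance within the group was uneven. The median level was 89.2 CPM in heart and 137 CPM in muscle, with ranges from 5.21 to 3124 CPM in heart and from 5.27 to 26550 CPM in muscle. At 1000 CPM or more there were 12 genes in heart and 27 in muscle, and below 20 CPM there were 35 in heart and 25 in muscle. The 10 most abundant genes supplied 46.3% of the group's summed CPM in heart and 56.3% in muscle, and 4 genes were among these 10 in both tissues. CPM counts reads per gene, so a long transcript gives more reads than a short one at the same number of molecules, and transcript lengths were not used here.

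The most abundant genes split differently between the tissues. ENSNFUG00015010293, first in heart, measured 3163, 3583, 4892, 3005 and 2540 CPM there with alendronate, against 2980, 2647, 2906 and 2713 CPM with placebo. In muscle the same gene had 1646, 1525, 1680, 1385 and 1743 CPM with alendronate, against 1197, 1775, 1406 and 1385 CPM with placebo. Every heart library was above every muscle library, and heart was higher in 9 of 9 fish. ENSNFUG00015012140, second in muscle after ENSNFUG00015010155, had 311, 376, 550, 675 and 552 CPM in heart with alendronate, against 524, 512, 498 and 423 CPM with placebo. In muscle it had 10148, 10017, 8548, 8143 and 8760 CPM with alendronate, against 11186, 10293, 11389 and 5682 CPM with placebo. This gene was 19.1-fold lower in heart than in muscle by its tissue levels, with no overlap between their libraries and overlapping arms within each.

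Most of the group differed by over 2-fold between heart and muscle. The log2 ratio of heart over muscle ranged from -5.15 to 7.37 over the 179 genes, with quartiles of -2.36 and 0.56. Only 62 of them, or 34.6%, lay within 2-fold, compared with 73.4% of the 9237 other genes at 5 CPM or more in both tissues. This contrast depended on the scaling, since with unadjusted totals 66 of the 179 and 42.8% of the other genes lay within 2-fold. At least 2-fold higher in heart were 29 genes, and at least 2-fold higher in muscle 88. At least 10-fold higher in heart were 8, and in muscle 17. With TMM levels, the 9 heart and 9 muscle libraries did not overlap at all for 103 of the 179 genes and overlapped for 76. Heart was above for 26 of the 103 and muscle for 77. Among all genes at 5 CPM or more in both tissues, 31.4% did not overlap. The counts without overlap were not repeated with unadjusted totals, which moved the median ratio of the other genes towards heart by 0.98 on the log2 scale. The levels in heart and muscle had a Spearman rho of 0.59 across the 179 genes, which share the libraries and were all chosen for a high level in both tissues.

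Which tissue was higher on balance depended on the scaling. With TMM, 55 genes were higher in heart and 124 in muscle, with a median log2 ratio of -0.95, while CPM from unadjusted totals gave 91 higher in heart, 88 in muscle and a median of 0.03. The other genes moved with it: their median was 0.09 with TMM and 1.07 with unadjusted totals. The group's median therefore lay 1.04 below that of the other genes on the log2 scale under both scalings, and 1.03 below with RLE size factors, under which the group's own median was -1.11. Relative to the median of the other genes, 126 of the 179 were shifted towards muscle under each of these scalings. A change of scaling moves the ratios of all genes by nearly the same amount. That the scalings gave the same result was therefore fixed in advance and is no further support.

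**Figure D2:**
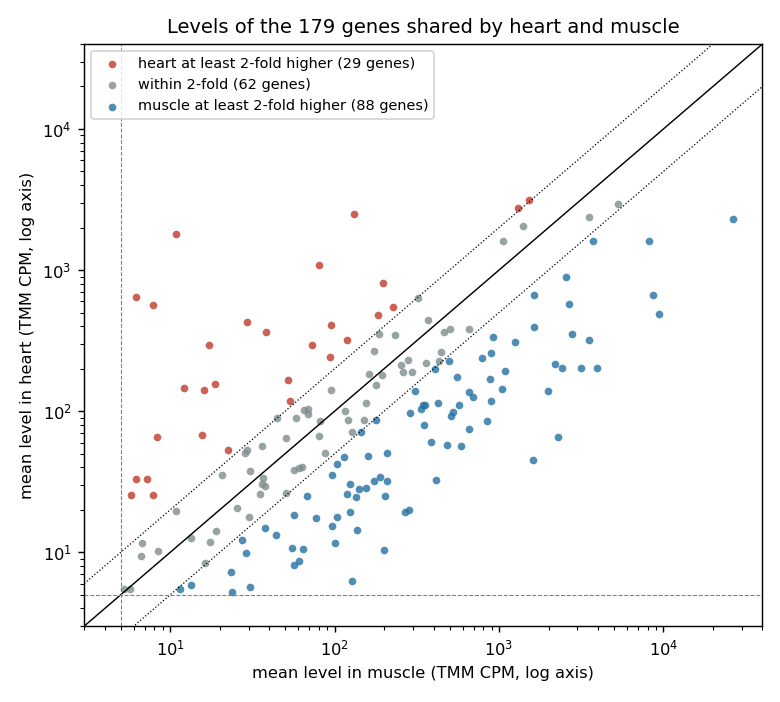
Tissue level in heart (vertical, TMM CPM, log axis) against tissue level in muscle (horizontal, TMM CPM, log axis) for the 179 genes. The solid line marks equal levels, dotted lines a 2-fold difference and dashed lines the lower limit of 5 CPM. There are 29 genes at least 2-fold higher in heart, 62 within 2-fold and 88 at least 2-fold higher in muscle with this scaling, and with unadjusted library totals the counts at least 2-fold higher are 55 in heart and 58 in muscle.

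The extremes of this ratio were sharp. ENSNFUG00015023222 had 1878, 1880, 2276, 1837 and 1576 CPM in heart with alendronate, against 1888, 1562, 1752 and 1584 CPM with placebo. In muscle it had 13.0, 8.44, 9.76, 9.88 and 8.64 CPM with alendronate, against 14.3, 12.2, 7.39 and 13.3 CPM with placebo. Its tissue level was 165-fold higher in heart, so it joined the group through a low muscle level that was still 10.7-fold above its highest level elsewhere, in spleen. ENSNFUG00015012645 followed with a heart level of 639 CPM and a muscle level of 6.20 CPM, 103-fold higher in heart. At the other end ENSNFUG00015009203, at 45.5 CPM in heart and 1616 CPM in muscle, was 35.5-fold lower in heart, and ENSNFUG00015017481, at 65.4 CPM in heart and 2283 CPM in muscle, was 34.9-fold lower. For all 4 genes the 9 fish were of 1 sign, and the spread of the within-fish log2 ratio was between 0.39 and 0.55 (SD, n = 9).

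A few genes sat at the limits of the definition. The closest above 5 CPM was ENSNFUG00015007628 at 5.21 CPM in heart, and the closest below, left out, was ENSNFUG00015022636 at 4.76 CPM in heart. The closest above 10-fold was ENSNFUG00015017481 at 10.04-fold over kidney, and the closest below, left out, was ENSNFUG00015011688 at 9.95-fold over kidney. The definition works on means, so single libraries may fall short of it: 156 of the 179 genes had at least 5 CPM in each of the 18 heart and muscle libraries and 23 did not. The median library was under 5 CPM for 2 genes in heart and 2 in muscle.

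Outside heart and muscle the group took very different shares of counts in the 3 other tissues. It took 0.00823 ± 0.00228% of liver counts with alendronate and 0.00598 ± 0.00271% with placebo (SD, n = 5 and 4). In spleen it took 0.0579 ± 0.00926% with alendronate and 0.0656 ± 0.0116% with placebo (SD, n = 5 and 3), and in kidney 0.145 ± 0.0757% with alendronate and 0.120 ± 0.00207% with placebo (SD, n = 5 and 2). The arms overlapped in each tissue, and both placebo kidneys lay inside the alendronate range. The size of the contrast between tissues depended on the scaling. TMM factors ran from 0.364 to 0.687 in liver, 1.44 to 1.84 in spleen and 1.60 to 1.91 in kidney. A given share thus gave a higher CPM in liver. The group's summed TMM CPM ran from 107 to 217 in liver, 297 to 439 in spleen and 283 to 1628 in kidney. By this sum liver was closer to the other tissues than by share. Kidney held the highest of the 3 levels for 129 genes, spleen for 33 and liver for 17. At 1 CPM or more were 104 genes in kidney, 52 in spleen and 39 in liver. No count in any library of the tissue was found for 16 genes in liver, 1 in spleen and 0 in kidney. By the 3 counts that 0 allows, 0 counts in a single liver library allow a level of up to between 0.180 and 0.329 CPM. The same bound was between 0.0618 and 0.0994 CPM in spleen and between 0.0527 and 0.0834 CPM in kidney. A count of 0 thus bounded the level less tightly in liver. These bounds and the Wilson intervals cover counting error only.

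Taken at the lower of its heart and muscle levels, the median gene was 32.7-fold above its highest other tissue. For 29 genes the fold was at least 100, and for 47 it was under 20. ENSNFUG00015010293 stood, by its muscle level, 895-fold above its kidney level of 1.70 CPM, while ENSNFUG00015010155, at 107 CPM in kidney, was 21.6-fold above it by its heart level, the lower of both.

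Kidney libraries differed within the alendronate arm. The group's share of kidney counts was 0.0524%, 0.260%, 0.154%, 0.147% and 0.113% in alendronate fish 1 to 5, against 0.121% and 0.118% in placebo fish 2 and 3. Alendronate fish 2 was highest and alendronate fish 1 lowest, and 160 of the 179 genes had a higher level in kidney of alendronate fish 2 than of alendronate fish 1. These libraries were picked as the ends of the group's own share, which favours a high count, and other genes were not counted beside it. The 402 muscle-enriched genes moved with this: they took 0.170%, 2.02%, 1.28%, 0.603% and 0.709% of kidney counts in alendronate fish 1 to 5, against 0.579% and 0.550% in placebo fish 2 and 3. The 130 heart-enriched genes took 0.109%, 0.120%, 0.116%, 0.138% and 0.121% in the same alendronate kidneys, against 0.105% and 0.110% in the placebo kidneys. The share of muscle-enriched genes thus spanned more than that of the shared genes across kidney libraries, and the share of heart-enriched genes spanned less. Their part in the kidney values was not tested.

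The order of the 179 genes by level in each of these libraries was set beside their order in heart and in muscle. Across the genes, levels in a kidney library had a Spearman rho between 0.52 and 0.63 with the heart levels and between 0.57 and 0.87 with the muscle levels, and the value of 0.87 belonged to alendronate fish 2. Spleen libraries had rho between 0.37 and 0.63 with heart and between 0.21 and 0.48 with muscle, and the highest of each came from placebo fish 3. Liver libraries had rho between 0.21 and 0.39 with heart and between 0.12 and 0.28 with muscle. The points are genes of unequal length and depth, so these values are a description and carry no p-value.

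**Figure D3:**
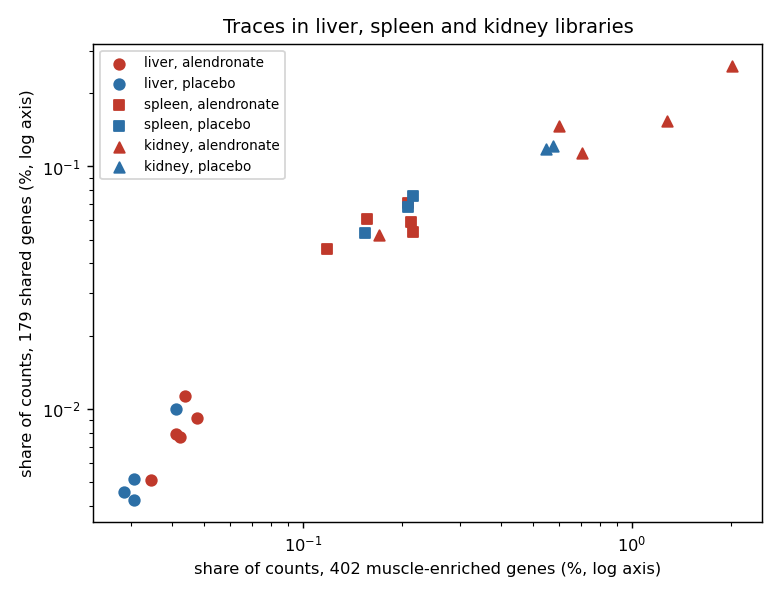
Share of counts from the 179 shared genes (vertical, %, log axis) against the share from the 402 muscle-enriched genes (horizontal, %, log axis) in the liver, spleen and kidney libraries, with alendronate in red and placebo in blue and 1 point per library. Kidney of alendronate fish 2 is at 0.260% and 2.02%, the upper right corner, and kidney of alendronate fish 1 at 0.0524% and 0.170% lies among the spleen libraries.

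Alendronate was then compared with placebo in each tissue, which asks whether the drug moved these genes. No gene of the group passed the threshold in any tissue by edgeR's quasi-likelihood test at an adjusted p of 0.05 over all genes tested. All 179 genes were tested in heart and in muscle. Over all genes the test called 0% of 15975 in heart and 0.00641% of 15610 in muscle, which is 1 gene and not one of the 179. The smallest adjusted p in the group was 0.990 in heart and 0.664 in muscle by edgeR. limma-voom and DESeq2 also called 0 of the 179 in both tissues.

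In heart most fitted changes were small, and they were more often above 0 than below. They ran from -0.52 to 2.01 on the log2 scale, with quartiles of -0.07 and 0.23. The median log2 change of the 179 genes was 0.07, and 118 of them, or 65.9%, were above 0, compared with 49.8% of all genes tested. That count ran from 95 without alendronate fish 2 to 127 without alendronate fish 3, the library that stood apart, and was 101 with limma-voom. At an unadjusted p under 0.05 were 7 genes, 5 higher and 2 lower, which is 3.91% of the group against 2.62% of all genes. Leaving out alendronate fish 5 raised the count to 17 and leaving out placebo fish 4 lowered it to 4. For 158 of the 179 genes, or 88.3%, the 95% interval stayed inside a 2-fold change either way, compared with 74.7% of all genes tested in heart. All genes tested include genes below the group's limit of 5 CPM, where intervals tend to be wider, so the choice of the group favours this difference.

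Among the genes with the smallest p in heart, 1 that was higher had separate arms. ENSNFUG00015017505 had 110, 128, 175, 117 and 124 CPM in heart with alendronate, against 89.4, 103, 97.6 and 97.4 CPM with placebo. All alendronate hearts were above all placebo hearts, and fish 3 was highest. A gene picked for a small p in these libraries is likely to have separate arms, so the separation is no further support. By edgeR the log2 change was 0.43 ± 0.15 (SE), adjusted p = 0.990. ENSNFUG00015008208 had 34.5, 20.7, 22.3, 33.8 and 32.9 CPM in heart with alendronate, against 29.8, 46.5, 51.0 and 38.3 CPM with placebo, and its arms overlapped through placebo fish 1. edgeR gave a log2 change of -0.52 ± 0.20 (SE), adjusted p = 0.990. Next in each direction came ENSNFUG00015004742, with a log2 change of 0.37 ± 0.15 (SE), and ENSNFUG00015002229, with -0.26 ± 0.12 (SE), both at the same adjusted p.

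In muscle the changes were centred on 0 and ran from -2.08 to 1.68 on the log2 scale. The median log2 change was 0.001, and 92 of the 179 genes, or 51.4%, were above 0, compared with 49.4% of all genes tested. At an unadjusted p under 0.05 were 15 genes, 2 higher and 13 lower, which is 8.38% of the group against 7.41% of all genes. The count fell to 8 when alendronate fish 3 or 5 was left out, and to 10 without placebo fish 1, the library with the most genes far from the muscle median. It rose to 21 without placebo fish 2. The interval stayed inside 2-fold for 138 genes, or 77.1%, compared with 69.5% of all genes tested in muscle. As in heart, the group's limit of 5 CPM favours narrower intervals than among all genes tested.

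**Figure D4:**
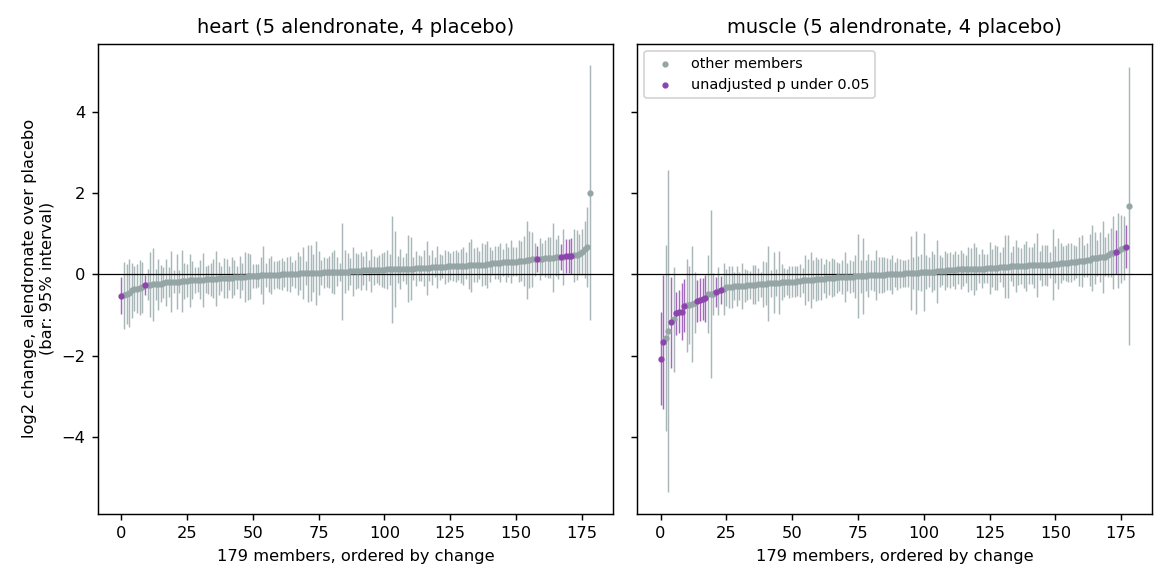
Fitted log2 change with alendronate over placebo for the 179 genes (vertical, bars are 95% confidence intervals), ordered by change within heart on the left and within muscle on the right. Genes at an unadjusted p under 0.05 are purple, 7 in heart and 15 in muscle, and none passed the adjusted threshold. Most points lie close to 0, with a median of 0.07 in heart and 0.001 in muscle.

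Of the lower genes in muscle, the gene with the smallest p had separate arms. ENSNFUG00015012516 had 56.4, 76.7, 57.6, 80.9 and 51.6 CPM in muscle with alendronate, against 199, 94.9, 96.1 and 107 CPM with placebo. No alendronate muscle reached the lowest placebo muscle, and placebo fish 1 was far above the others. The gene was picked for its small p in these libraries, which favours separate arms. How many genes of the group had separate arms was not counted. edgeR gave a log2 change of -0.97 ± 0.24 (SE), adjusted p = 0.664, and -0.63 without placebo fish 1. ENSNFUG00015015129 had 3.93, 2.07, 1.63, 1.29 and 1.23 CPM in muscle with alendronate, against 18.2, 4.95, 3.33 and 7.55 CPM with placebo, and its arms overlapped between alendronate fish 1 and placebo fish 3. edgeR gave a log2 change of -2.08 ± 0.52 (SE), adjusted p = 0.664, and -1.38 without placebo fish 1. These are low levels, at or under the limit of 5 CPM in 7 of the 9 muscle libraries. The muscle level of ENSNFUG00015015129, 5.27 CPM, passed that limit through the placebo mean of 8.51 CPM, while the alendronate mean was 2.03 CPM. The choice of the group thus favoured a lower value with alendronate for this gene.

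Of the higher genes in muscle, ENSNFUG00015023765 had 18.6, 43.7, 26.3, 21.0 and 34.9 CPM with alendronate, against 15.2, 22.7, 14.2 and 19.1 CPM with placebo, with overlapping arms. edgeR gave a log2 change of 0.68 ± 0.25 (SE), adjusted p = 0.664. ENSNFUG00015024145 had 97.2, 98.0, 140, 97.9 and 128 CPM in muscle with alendronate, against 53.3, 122, 85.1 and 46.4 CPM with placebo. Placebo fish 2 lay inside the alendronate range. The log2 change in muscle was 0.55 ± 0.25 (SE), and ran from 0.38 without placebo fish 4 to 0.84 without placebo fish 2. In heart it was 0.45 ± 0.19 (SE).

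The difference between the effects in heart and muscle was tested within fish, as a term for tissue and treatment together with the fish as a block. By edgeR 0 of 17343 genes passed, 0%, and the smallest adjusted p among the 179 was 0.884. Above 0, meaning a higher fitted change in heart than in muscle, were 103 of the 179, compared with 50% of all genes. At an unadjusted p under 0.05 were 19 genes, 13 above 0 and 6 below, which is 10.6% of the group against 4.93% of all genes. The count was 10 without placebo fish 1 and 12 without alendronate fish 3, the fish whose muscle or heart library stood apart. Among the fits without 1 fish, the highest count was 26, without alendronate fish 1. limma-voom also called 0 genes.

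ENSNFUG00015021536 had the smallest p of the group in this comparison. In heart it measured 3420, 3447, 4933, 3345 and 2020 CPM with alendronate, against 2915, 2303, 2557 and 1955 CPM with placebo. In muscle it measured 2854, 3771, 6487, 3896 and 2682 CPM with alendronate, against 9185, 5222, 7946 and 4242 CPM with placebo. The arms overlapped in both tissues, with alendronate on the whole higher in heart and lower in muscle. The fitted log2 change was 0.50 ± 0.23 (SE) in heart and -0.77 ± 0.30 (SE) in muscle. edgeR put their difference at 1.23 ± 0.24 (SE), adjusted p = 0.884, and it ran from 1.12 to 1.33 when each fish was left out. Deviations of the same fish in heart and muscle went together for this gene (r = 0.84, n = 9), and this was computed around the arm means.

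ENSNFUG00015012516 came next, at 149, 158, 244, 175 and 83.9 CPM in heart with alendronate, against 123, 133, 129 and 97.3 CPM with placebo. These arms overlapped, unlike those in muscle, and edgeR put the difference at 1.26 ± 0.31 (SE), adjusted p = 0.884. In the other direction ENSNFUG00015013873 had a difference of -0.65 ± 0.23 (SE) and ENSNFUG00015005788 one of -0.57 ± 0.23 (SE), at the same adjusted p. Both were close to the lower limit in heart, with 6.53 to 10.2 CPM with alendronate and 7.75 to 12.6 CPM with placebo for the first gene, and 3.63 to 9.72 CPM with alendronate and 4.40 to 7.81 CPM with placebo for the other.

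The direction of change was also set beside the heart-to-muscle ratio of the TMM levels. Of the 29 genes at least 2-fold higher in heart, 20 had a fitted change above 0 in heart and 14 in muscle, with medians of 0.17 and -0.10 on the log2 scale. Of the 62 within 2-fold, 37 were above 0 in heart and 30 in muscle, with medians of 0.07 and -0.01. Of the 88 at least 2-fold higher in muscle, 61 were above 0 in heart and 48 in muscle, with medians of 0.06 and 0.03. The 3 classes were not tested against each other.

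In liver, spleen and kidney the group is at trace levels, and only the genes that passed the filter on low counts were tested, 47 of 179 in liver, 105 in spleen and 156 in kidney. edgeR called 0 of these, as it called 0% of all genes in each of these tissues, and DESeq2 and limma-voom also called 0 of these. The smallest adjusted p among them was 0.914 in liver and 1.0 in spleen and kidney by edgeR. At an unadjusted p under 0.05 were 4 genes in liver, or 8.51% of those tested, against 4.37% of all liver genes. In spleen there were 4, or 3.81%, against 1.62% of all genes, and in kidney 0 against 1.7%. In liver that count was 1 or 2 without alendronate fish 1, 2 or 4 or placebo fish 1 or 2, and 9 without placebo fish 4. In spleen it was 2 without alendronate fish 5 or placebo fish 3 and 9 without placebo fish 4. In kidney it was 9 without alendronate fish 1 and 4 without alendronate fish 2, the libraries with the lowest and the highest traces, 2 without alendronate fish 5 and 1 without alendronate fish 4, placebo fish 2 or placebo fish 3.

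By its median, the spread between fish of the same arm was wider in this group than in the other genes. The median residual SD of log2 CPM around the arm means was 0.33 in heart, against 0.26 for the 9237 other genes, and 0.37 in muscle, against 0.28 for the others. Genes enriched in a single tissue had a median of 0.38 in heart for the heart-enriched genes and of 0.42 in muscle for the muscle-enriched genes. The quietest gene in heart was ENSNFUG00015021472, with 71.9 to 82.5 CPM with alendronate and 65.3 to 79.9 CPM with placebo. The quietest in muscle was ENSNFUG00015021744, with 251 to 289 CPM with alendronate and 238 to 288 CPM with placebo, although it ran from 12.4 to 24.5 CPM over the 9 hearts.

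ENSNFUG00015001059 varied most in heart and was the only gene with a residual SD above 1 in both tissues. In heart it stood at 2.80, 44.1, 3.80, 2.53 and 145 CPM in alendronate fish 1 to 5, against 4.65, 12.0, 1.34 and 20.1 CPM in placebo fish 1 to 4. In muscle it stood at 78.5, 184, 108, 8.37 and 643 CPM in alendronate fish 1 to 5, against 42.4, 191, 1.11 and 22.5 CPM in placebo fish 1 to 4. Alendronate fish 5 was highest in both tissues and placebo fish 3 lowest in both, and the deviations in heart and muscle had an r of 0.74 over the 9 fish. The median heart library, at 4.65 CPM, was under the limit, so its place in the group rests on a few fish.

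ENSNFUG00015016538 varied most in muscle, with a residual SD of 2.68 there and 0.41 in heart. In heart it had 31.7, 47.6, 18.4, 37.2 and 40.4 CPM with alendronate, against 31.1, 33.7, 25.7 and 32.9 CPM with placebo. In muscle it had 0.403, 14.1, 1.21, 0.730 and 0.747 CPM with alendronate, against 33.4, 0.540, 1.74 and 0.0484 CPM with placebo. Placebo fish 1 and alendronate fish 2 were high in muscle and the other 7 libraries were at 1.74 CPM or less, so the muscle level of 6.18 CPM that brought it into the group comes from these libraries.

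**Figure D5:**
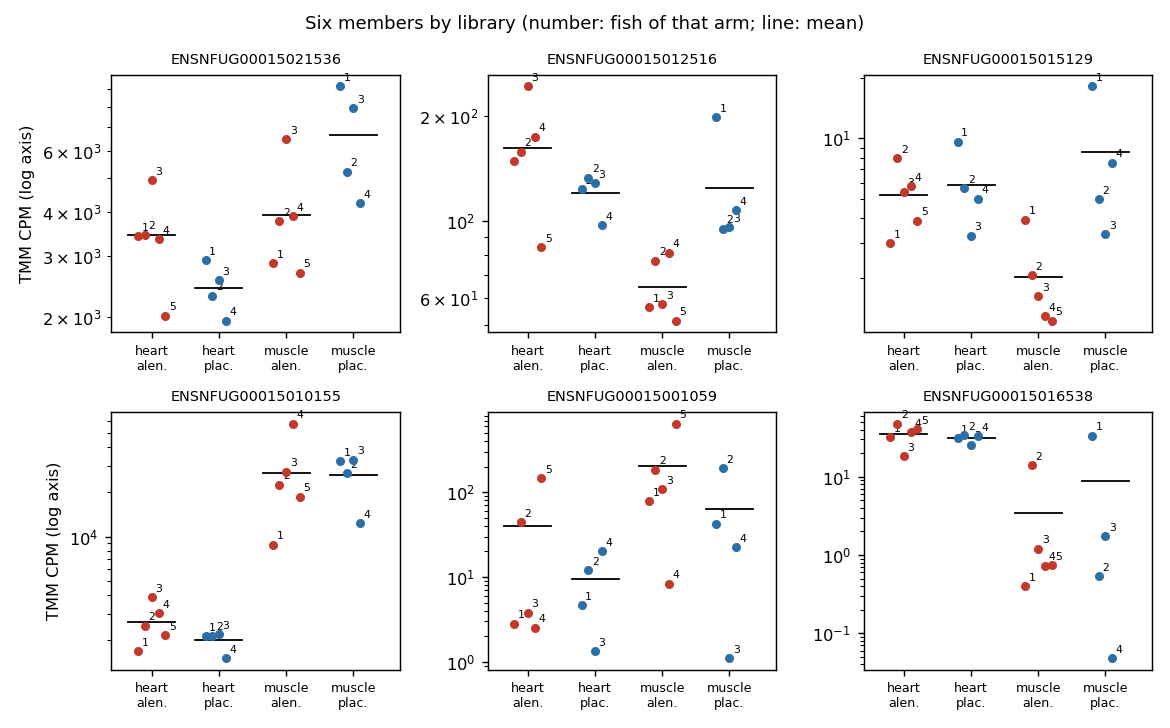
Levels of 6 genes of the group in each heart and muscle library (TMM CPM, log axis, a scale of its own in each panel), with alendronate in red left of placebo in blue within each tissue, numbers giving the fish within its arm and lines the group means. The 3 upper panels are genes with a small p in muscle or in the difference between tissues. The 3 lower panels are the most abundant gene in muscle, with alendronate fish 4 at 57966 CPM, and the most variable genes of heart and of muscle.

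Deviations of a fish in heart were set beside those in muscle. The correlation of the deviations in heart and muscle of the same fish, over 9 fish and around the arm means, had a median of 0.36 over the 179 genes and 0.24 over the other genes. It was above 0 for 145 of the 179, or 81.0%, compared with 73.7% of the others, and above 0.5 for 48. Genes of 1 library share its depth and scaling, so these counts carry no p-value. By fish, alendronate fish 2 lay above its arm mean for 135 of the genes in heart and 132 in muscle, and placebo fish 2 for 124 in heart and 140 in muscle. Alendronate fish 1 lay above it for only 60 in heart and 58 in muscle, and placebo fish 4 for 30 in heart and 65 in muscle. Other fish differed between the tissues, with placebo fish 1 above for 113 in heart and 80 in muscle and placebo fish 3 for 132 in heart and 89 in muscle. Alendronate fish 3, 4 and 5 lay above for 85, 96 and 98 in heart and for 77, 95 and 90 in muscle. The median deviation of placebo fish 4 was -0.20 in heart and -0.14 in muscle on the log2 scale for the group, and -0.10 in heart and -0.03 in muscle for the other genes. Over the 9 fish the group's median deviation ran from -0.20 to 0.19 in heart and from -0.15 to 0.25 in muscle. That of the other genes ran from -0.10 to 0.06 in heart and from -0.03 to 0.06 in muscle. How many of the other genes lay above the arm mean in each fish was not counted.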

How the data were processed

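The authors deposited raw read counts, 1 column per library and 1 line per Ensembl gene ID. Tools named in the submitters' processing notes include STAR 2.7.10b, Trim Galore 0.6.10, SAMtools 1.13 and FastQC 0.12.1. The sources used here give no counting program, strand setting, rule for reads shared by near-identical gene copies, genome build or annotation, so antisense, overlapping and duplicated genes cannot be told apart. All columns of the table belong to labelled samples.

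Tissue and arm came from the labels. Levels are CPM after TMM scaling of all 42 libraries together. Each tissue was tested alone with edgeR 4.0.16 in R 4.3.3 (filterByExpr, TMM, robust quasi-likelihood F test, two-sided, treatment as the only term), and p-values were adjusted by the Benjamini-Hochberg method over all genes tested, with a threshold of 0.05. The difference between heart and muscle was fitted to 18 libraries with the fish as a block. Residual SD and correlations used log2 CPM with a prior count of 2. The procedure was run on simulated counts with known changes and the same spread for all genes. Such counts are simpler than the real libraries, so the run does not measure how small a change could be detected here. Alternatives were limma-voom (limma 3.58.1), DESeq2 1.42.0, RLE factors, unadjusted totals, no filter, a replicate block, 1 fit of all libraries, other limits for the group, and leaving out each fish.

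The number in a title names a different fish in each arm, so it was not used as a block between arms. Fish with the same number in different arms did not deviate together throughout (correlations from -0.31 to 0.38). Heart and muscle libraries with the same letter and number had correlations from 0.003 to 0.35. These ranges overlap, so reading such libraries as 1 fish rests on the titles. The p-values set each difference against the spread between fish, and they do not account for tank or library order. The genes and lists were chosen with earlier results of these data known. Named genes are those with the highest levels and ratios in heart and muscle, the smallest p in each direction in heart, muscle and their difference, the widest and narrowest spread, and those nearest the limits. Other genes named were chosen after their values were seen. The gene lists for muscle proteins and cell types could not be matched to IDs and were not tested.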

Additional observations from a re-analysis of the deposited data

Results flagged for a closer look

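A sample was compared with the others of its arm by the gap to its nearest neighbour as a share of the arm's range (Dixon's test at 95%). Over 100 groups of 4 or 5 libraries, 12 values passed, where chance gives about 1 in 20, or 5, if values are normally distributed. The CPM and shares were compared without logs, a scale on which gaps below a high value are wider than on a log scale. Some libraries held more than 1 of them, with 3 in muscle of alendronate fish 4. Heart of placebo fish 4 and muscle of placebo fish 1 held 2 each. Many of the genes compared were named for a wide spread or a small p in these same libraries, which favours such gaps, so the count is not read against chance.

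In muscle of alendronate fish 4 the 179 genes took 11.6% of counts, the next library being at 8.59%, and ENSNFUG00015004742 was at 10815 CPM with the next at 3747 CPM. ENSNFUG00015021472 was lowest there, at 338 CPM with the next at 643 CPM. In muscle of placebo fish 1 ENSNFUG00015012516 was at 199 CPM with the next placebo library at 107 CPM, and ENSNFUG00015016538 at 33.4 CPM with the next at 1.74 CPM. The same gene reached 14.1 CPM in muscle of alendronate fish 2, with the next alendronate library at 1.21 CPM. ENSNFUG00015001059 was at 643 CPM in muscle of alendronate fish 5 with the next at 184 CPM.

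In heart, placebo fish 4 was lowest for ENSNFUG00015010155, at 1509 CPM with the next at 2127 CPM, and for ENSNFUG00015005788, at 4.40 CPM with the next at 7.76 CPM. ENSNFUG00015005788 was at 9.72 CPM in heart of alendronate fish 4 with the next at 5.10 CPM. ENSNFUG00015017505 was at 175 CPM in heart of alendronate fish 3 with the next at 128 CPM. In liver of placebo fish 4 the 179 genes took 0.0100% of counts with the next placebo liver at 0.00516%. These values are given without an explanation, and what sets the libraries apart was not tested.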

How the results depend on the processing

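The number of genes in the group was 260 with a 5-fold and 132 with a 20-fold limit over the other tissues, 204 at 1 CPM and 157 at 10 CPM, 153 with unadjusted totals, 170 from alendronate and 187 from placebo libraries alone, and 175 to 181 without 1 fish. Of the 179, 144 remained with unadjusted totals and 174 with RLE factors. Their summed TMM CPM, put as a percentage of the nominal CPM total, was 4.98% in heart and 13.5% in muscle. After TMM scaling the CPM of a library no longer add up to that total, so these values are not shares of counts. The share of counts of the group was 8.96% in muscle, and 7.23% with ENSNFUG00015010155 left out. With unadjusted totals the median log2 ratio of heart over muscle was 0.0278 and 91 genes were higher in heart.

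No gene of the group passed the adjusted threshold under any alternative run. Over all genes DESeq2 called 1 in heart, 2 in muscle, 1 in liver, 11 in spleen and 2 in kidney, and 1 fit of all 42 libraries called 3 in liver. In muscle the single call was lost (0 genes) without a filter and with the replicate block. It was also lost in 8 of the 9 fits without 1 fish, and 1 gene was called only without alendronate fish 4.

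Counts of the group's genes at an unadjusted p under 0.05 moved more. With 1 fit of all libraries they were 0 in heart, 7 in muscle, 17 in liver, 26 in spleen and 8 in kidney. Without a filter they were 9 in liver, 14 in spleen and 1 in kidney. With the replicate block they were 18 in heart and 36 in kidney, where the same number marks different fish, so a change under the block is no measure of the effect. In kidney limma-voom gave 2 and DESeq2 3. Without 1 fish they ran from 4 to 17 in heart, 8 to 21 in muscle, 1 to 9 in liver, 2 to 9 in spleen, 0 to 9 in kidney and 10 to 26 for the difference between heart and muscle, which gave 13 without the fish as a replicate block. The cause of these shifts was not tested. The 12 changes of named genes with a smallest p in heart, muscle or their difference kept their sign in the alternatives run for them, without passing the threshold. These genes were picked for a small p in the same libraries that the alternatives reuse, so a kept sign is no further support. With 4 or 5 fish per arm, 21 of the 179 intervals in heart and 41 in muscle reached beyond 2-fold.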

Other observations

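Some of the most variable genes moved in the same libraries. These were picked after their values were seen. In muscle, ENSNFUG00015021201 had 69.6, 213, 76.4, 48.6 and 57.2 CPM with alendronate, against 885, 84.4, 66.7 and 50.0 CPM with placebo, and ENSNFUG00015020877 had 6.60, 13.7, 4.93, 7.02 and 5.39 CPM with alendronate, against 67.0, 10.7, 8.60 and 7.69 CPM with placebo. Like ENSNFUG00015016538 above, both were highest in muscle of placebo fish 1 and next highest in muscle of alendronate fish 2. In heart all 3 had higher tissue levels than in muscle and spread less between fish.

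In heart of alendronate fish 3, ENSNFUG00015007592 was at 3.29 CPM, against 29.4 to 60.8 CPM in the other 4 alendronate hearts and 26.5 to 33.3 CPM in the placebo hearts. ENSNFUG00015007720 was at 8.21 CPM there, against 52.6 to 102 CPM in the other alendronate hearts and 48.3 to 60.8 CPM in the placebo hearts. In muscle of the same fish these genes stood at 135 and 441 CPM, the lowest of the alendronate muscles, and both were lower still in placebo fish 1, at 60.4 and 152 CPM.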
